A study of Mus musculus with 18 samples.

Results

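Mef2c, Gata4 and Tbx5 are the 3 transcription factors that a retrovirus carried into mouse cardiac fibroblasts to turn them toward heart muscle cells. They were taken by gene symbol, as 3 of 23420 genes in the count tables, and all 3 passed the filter on low counts that left 14162 genes to test. Primary heart fibroblasts from newborn (neonatal) CD1 mice were used, transduced with a poly-cistronic retrovirus of the 3 factors (treatment label MGT), and each library is bulk RNA of such a culture. Each culture also carried a short hairpin RNA, and the 12 libraries of the second set formed 4 groups of 3: the double knockdown (shMtfr1l with shOpa1), shOpa1, shMtfr1l and the hairpin labelled shNT. Every group of the second set received the retrovirus, shNT included. Replicates 1, 2 and 3 are titled day 7, 8 and 9 in every group, and the library names call them biological replicates. The genotype field of the shOpa1 and double libraries counts up in the same order (shOpa1, shOpa2, shOpa3), so whether the days are real differences in time cannot be told apart from a numbering of replicates. The first set gave 1 shMtfr1l sample (labelled 85% knockdown) and 1 shNT sample with the retrovirus, both at day 7. Each has 3 count columns, which were summed and are treated here as 1 library. Its 4 fibroblast samples without retrovirus are not analysed here. By name, their columns fit fibroblast samples of more than 1 titled day, so no column was tied to a single sample. The level without the retrovirus is therefore not given, although such columns exist. Mtfr1l encodes a mitochondrial fission regulator-like protein and Opa1 a GTPase for fusion of the inner mitochondrial membrane, and the study asked how their loss acts on reprogramming.

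MEF2C is a MADS-box factor, GATA4 a zinc finger factor and TBX5 a T-box factor. In the developing heart they bind together at regulatory DNA of contractile, ion channel and natriuretic peptide genes, and forced together in fibroblasts they switch on part of that program. A poly-cistronic vector makes a common transcript for all of its coding sequences. Reads on the coding exons of these genes can therefore come from the vector or from the cell's own gene, and the gene counts used here add both sources up. Which species and isoform the vector's sequences follow is not stated in the labels.

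The coding sequences below are what vector and endogenous reads would share if the vector follows the mouse reference. The first 150 coding bases of each gene are shown in the GRCm38 reference with GENCODE annotation, with the start codon in capitals.
Mef2c: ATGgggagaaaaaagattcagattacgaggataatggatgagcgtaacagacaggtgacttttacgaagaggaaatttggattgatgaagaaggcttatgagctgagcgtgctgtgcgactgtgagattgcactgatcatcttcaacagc
Gata4: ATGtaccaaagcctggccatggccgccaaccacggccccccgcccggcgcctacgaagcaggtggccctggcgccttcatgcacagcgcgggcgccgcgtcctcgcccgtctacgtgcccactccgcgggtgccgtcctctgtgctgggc
Tbx5: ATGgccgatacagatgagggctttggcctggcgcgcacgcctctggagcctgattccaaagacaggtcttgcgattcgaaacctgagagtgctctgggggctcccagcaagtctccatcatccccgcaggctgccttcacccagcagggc
The Mef2c stretch opens the MADS box, the part of the protein that binds DNA. GATA4 holds a pair of zinc fingers, found from the spacing of their cysteines at coding bases 646 to 720 and 808 to 882. They are printed with the 4 cysteine codons of each finger in capitals.
Gata4 zinc finger 1: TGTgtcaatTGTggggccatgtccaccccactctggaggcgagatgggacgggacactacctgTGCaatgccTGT
Gata4 zinc finger 2: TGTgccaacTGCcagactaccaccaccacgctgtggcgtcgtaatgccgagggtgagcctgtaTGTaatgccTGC
In the mm10 annotation of the count tables, Mef2c lies at chr13:83504034-83667079 on the plus strand, Gata4 at chr14:63198915-63245260 on the minus strand and Tbx5 at chr5:119834663-119885218 on the plus strand. No other annotated gene overlapped any of them. The coding part makes up 19.7% of the 6565 exon bases of Mef2c, 38.99% of the 3393 of Gata4 and 39.4% of the 3941 of Tbx5. Coding lengths were 1296, 1323 and 1554 bases for Mef2c, Gata4 and Tbx5. Levels are compared between the genes per kilobase (kb) of coding length first, since vectors of this kind usually carry coding sequence alone, and per kb of exon length second.

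Depth ran from 16205862 to 25317069 counts per library in the second set, and was 62923192 counts in the first-set shMtfr1l library and 67068683 counts in the first-set shNT library. Each targeted gene was lowest in the libraries of its own hairpin. Mtfr1l was 27.2 ± 4.15 CPM (counts per 1000000 counts of the library) in double knockdown, 69.6 ± 3.34 in shOpa1, 16.4 ± 2.88 in shMtfr1l and 71.9 ± 4.17 in shNT libraries (SD, n = 3 each). Opa1 was 18.3 ± 2.34 CPM in double knockdown, 8.96 ± 3.16 in shOpa1, 72.1 ± 1.35 in shMtfr1l and 63.1 ± 8.33 in shNT libraries. Both targets were less reduced in the double knockdown than in the matching knockdown alone, with adjusted p of 8.08e-05 for Mtfr1l and 0.000488 for Opa1 (edgeR quasi-likelihood test). The labelled cell type could be seen in its markers: the summed level of 10 fibroblast markers lay between 34000 and 38830 CPM in all groups. Col1a1 and Col1a2 had the highest means in that sum, and single fibroblast markers differed more. Col3a1 had means of 7696 CPM in double knockdown, 9845 in shOpa1, 4574 in shMtfr1l and 7255 in shNT. Tcf21, Lum and Pdgfra had their highest means in shNT, Vim in shMtfr1l, and Col1a1 and Col1a2 their lowest in shNT. The part of these markers in the factors' levels was not tested. The 8 cardiomyocyte markers summed to 2170 to 2244 CPM in double knockdown, 1586 to 1799 in shOpa1, 3703 to 4011 in shMtfr1l and 2738 to 2808 in shNT libraries, without overlap between groups, and the part of this difference in the factors' levels was not tested. Single cardiomyocyte markers did not all follow the sum. In double knockdown the means of Myh6 (86.8 CPM), Actc1 (178) and Actn2 (7.27) were above those of shNT (50.8, 145 and 6.39). The means of the other cardiomyocyte markers were below shNT there. Of 7 macrophage and leukocyte markers, Cd3e was at 0 in every library. The 7 summed to 528 to 680.5 CPM in double knockdown, 219 to 529 in shOpa1, 128 to 469 in shMtfr1l and 256 to 375 in shNT libraries. The 6 epicardial and mesothelial markers summed to 178 to 204 CPM in double knockdown, 180 to 217 in shOpa1, 172 to 184 in shMtfr1l and 279 to 297 in shNT libraries. The 6 smooth muscle markers summed to 3809 to 3862 CPM in double knockdown, 3893 to 4095 in shOpa1, 4056 to 4323 in shMtfr1l and 4486 to 4854 in shNT libraries. Both sums were thus below every shNT library in every knockdown library, beside each comparison of the factors with shNT. Among the smooth muscle markers, Acta2, Tagln and Cnn1 had lower means in each knockdown group than in shNT. Des went the other way, at 347 CPM in shNT and 428, 370 and 484 CPM in double knockdown, shOpa1 and shMtfr1l. Myh11 was also lowest in shNT, and Smtn was below shNT in double knockdown alone. The part of these markers in the comparisons with shNT was not tested. Endothelial markers (8) summed to 47.2 to 62.6 CPM over all libraries. In bulk RNA, fewer cells of a type and less RNA per cell cannot be told apart.

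All 3 factors were among the more abundant transcripts, and together they took 0.0958% to 0.128% of a library's counts. Gata4 ranked 246, Tbx5 439 and Mef2c 534 of 14162 genes by mean CPM over the 12 libraries. CPM values here and below use library sizes corrected by TMM, the trimmed mean of M values.

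Mef2c, the MADS-box factor, had 292, 278 and 279 CPM in double knockdown replicates 1, 2 and 3, 274, 280 and 252 CPM in shOpa1, 349.8, 328 and 296 CPM in shMtfr1l, and 246, 295 and 286 CPM in shNT replicates. The shMtfr1l libraries were all above the shNT libraries, but by little: the lowest shMtfr1l library had 296 CPM and the highest shNT library 295 CPM. Means were 283 ± 7.91 CPM in double knockdown, 269 ± 14.7 in shOpa1, 325 ± 27.0 in shMtfr1l and 276 ± 26.2 in shNT libraries (SD, n = 3 each). The shOpa1, shNT and double knockdown libraries overlapped, and the order of those 3 groups is within their spread.

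Gata4, the zinc finger factor, had 476, 473 and 467 CPM in double knockdown replicates 1, 2 and 3, 468, 455 and 419 CPM in shOpa1, 571, 536 and 506 CPM in shMtfr1l, and 450.5, 477 and 517 CPM in shNT replicates. The shMtfr1l and shNT libraries overlapped for Gata4, because shNT replicate 3 lay above shMtfr1l replicate 3. Means were 472 ± 4.38 CPM in double knockdown, 447 ± 25.8 in shOpa1, 538 ± 32.8 in shMtfr1l and 481 ± 33.6 in shNT libraries (SD, n = 3 each). The double knockdown libraries ran from 467 to 476 CPM, the smallest spread of the 4 groups for Gata4.

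Tbx5, the T-box factor, had 336, 307.5 and 322 CPM in double knockdown replicates 1, 2 and 3, 310.0, 327 and 278 CPM in shOpa1, 395, 358 and 357 CPM in shMtfr1l, and 302, 318 and 345 CPM in shNT replicates. As for Mef2c, every shMtfr1l library was above every shNT library, and the other 3 groups overlapped. Means were 322 ± 14.1 CPM in double knockdown, 305 ± 24.6 in shOpa1, 369.9 ± 21.6 in shMtfr1l and 322 ± 21.7 in shNT libraries (SD, n = 3 each). Across all 12 libraries the highest value was 1.42 times the lowest for Mef2c, 1.36 times for Gata4 and 1.42 times for Tbx5. The median such range of 2075 genes with a mean of 100 CPM or more was 1.32 times, and 68.9%, 59.9% and 68.2% of them had a smaller range than Mef2c, Gata4 and Tbx5.

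**Figure D1:**
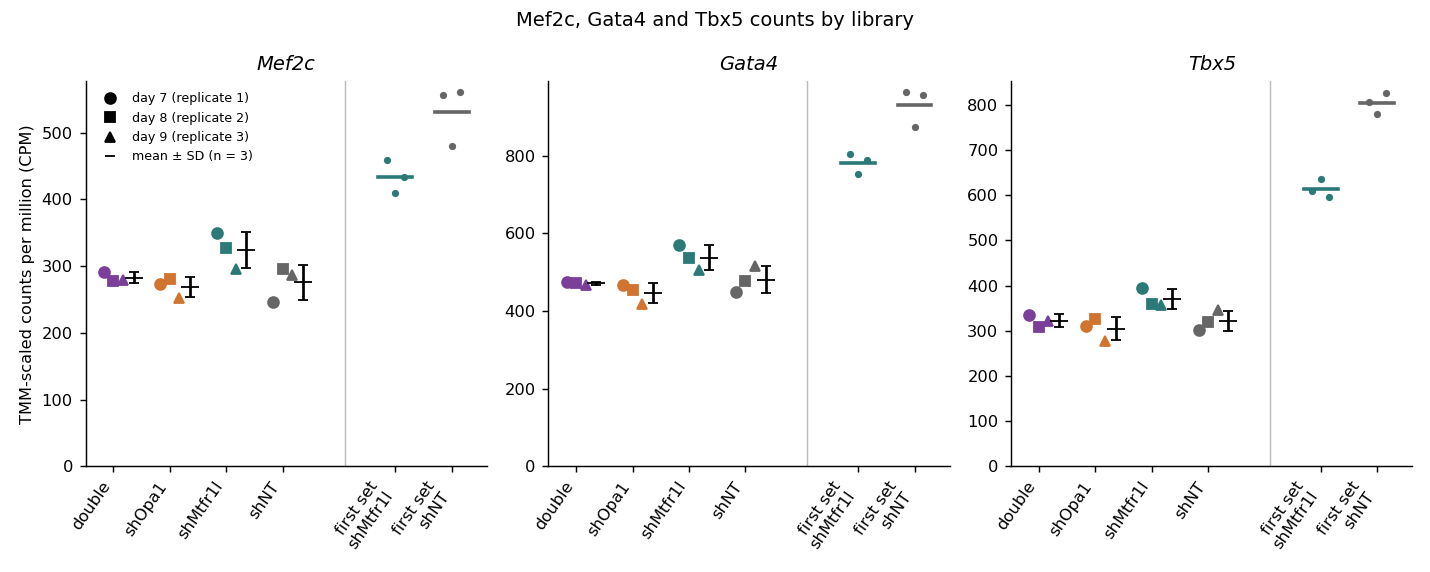
Mef2c, Gata4 and Tbx5 in TMM-scaled CPM, with each second-set library as a symbol by its titled day and the mean ± SD of 3 libraries in black; right of the grey line, the first-set libraries with their 3 columns as dots and their sum as a line. The shMtfr1l mean is the highest of the second set for each factor, whereas in the first set the shMtfr1l library lies below the shNT library.

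The first comparison asked whether Mtfr1l knockdown changed the factors during reprogramming. Mef2c was 1.18-fold higher in shMtfr1l than in shNT libraries (log2 0.24 ± 0.067 SE, adjusted p = 0.0256 by the quasi-likelihood test of edgeR, over all 14162 genes). Tbx5 was 1.15-fold higher (0.20 ± 0.063, adjusted p = 0.0443). Gata4 did not pass the threshold of 0.05, at 1.12-fold (0.16 ± 0.056, 95% interval of the fold 1.03 to 1.21, adjusted p = 0.0794). Thus 2 of the 3 factors were called higher and 0 lower, where 5% of all genes were called higher and 4.79% lower. DESeq2 called all 3 higher, as did edgeR with a robust fit or without the filter on low counts (adjusted p of Gata4 0.0468 and 0.0365). The median absolute log2 fold change over all genes was 0.155, beside 0.16 to 0.24 for the factors.

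These calls rested on single libraries. Without shMtfr1l replicate 1, and likewise without shNT replicate 1 or with the 2 groups fitted alone, 0 of the 3 factors were called by edgeR. Mef2c also lost its call without shMtfr1l replicate 2 and Tbx5 without shNT replicate 2, whereas Gata4 gained one without replicate 3 of either group. All 3 had an unadjusted p under 0.05 in the fit as reported, and without replicate 1 of every group the log2 fold changes were 0.10 for Mef2c, 0.068 for Gata4 and 0.11 for Tbx5. With the replicate number as a block, Tbx5 lost its call and Mef2c kept it, at adjusted p of 0.0760 and 0.0406 (edgeR). Within same-numbered libraries, Mef2c differed by 0.51, 0.15 and 0.049 on the log2 scale in replicates 1, 2 and 3. Gata4 differed by 0.34, 0.17 and -0.032, and Tbx5 by 0.39, 0.17 and 0.047. For all 3 factors the difference was largest in the libraries titled day 7 and smallest in those titled day 9, and a trend with the titled day was not tested.

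Opa1 knockdown alone was asked the same question. No factor passed the test against shNT. Mef2c was at 0.97-fold in shOpa1 (95% interval 0.885 to 1.07), Gata4 at 0.93-fold (0.857 to 1.01, adjusted p = 0.170 by edgeR) and Tbx5 at 0.95-fold (0.866 to 1.04). None had an unadjusted p under 0.05, and DESeq2 called 0 as well. Over all genes, 14% were called higher and 14.8% lower in this comparison, more than with shMtfr1l.

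In the double knockdown against shNT, the factors were close to the shNT level. Mef2c was at 1.02-fold (95% interval 0.931 to 1.13), Gata4 at 0.98-fold (0.904 to 1.06) and Tbx5 at 1.00-fold (0.914 to 1.09). None was called by edgeR or DESeq2, or had an unadjusted p under 0.05, where 11.8% of genes were called higher and 11.6% lower.

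Against shMtfr1l, the double knockdown had less of all 3 factors. Gata4 fell by 0.19 on the log2 scale (SE 0.056, adjusted p = 0.0181, edgeR), Tbx5 by 0.20 (SE 0.062, adjusted p = 0.0230) and Mef2c by 0.20 (SE 0.067, adjusted p = 0.0349). Every double knockdown library lay below every shMtfr1l library for each factor. The count of 3 lower and 0 higher stands beside 11.3% of all genes called lower and 10.2% called higher. The 3 factors share a vector and libraries, so they are not 3 independent observations. Without shMtfr1l replicate 1, double knockdown replicate 2 or double knockdown replicate 3, none of the 3 was called, although each kept its direction. Mef2c also lost its call without shMtfr1l replicate 2, without double knockdown replicate 1 and with library totals in place of TMM. The summed level of macrophage and leukocyte markers, given above, was higher in every double knockdown library than in every shMtfr1l library. Its part in the result was not tested.

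Against shOpa1, the double knockdown did not differ by the test. Mef2c was at 1.05-fold (95% interval 0.956 to 1.16), Gata4 at 1.06-fold (0.973 to 1.14) and Tbx5 at 1.06-fold (0.965 to 1.15). No factor was called by edgeR or DESeq2 and none had an unadjusted p under 0.05; 2.05% of genes were called higher and 2.17% lower. The interaction, the shMtfr1l effect with shOpa1 minus that without it, was -0.16 for Mef2c (95% interval -0.36 to 0.033), -0.082 for Gata4 (-0.25 to 0.083) and -0.12 for Tbx5 (-0.31 to 0.061) on the log2 scale. Its estimates were below 0 for all 3 factors, but neither tool called any, and no unadjusted p was under 0.05, where 1.27% of genes had a called interaction above 0 and 1.59% below 0. A dependence of the shMtfr1l difference on Opa1 was thus not called for any factor. Mtfr1l itself was less reduced in the double knockdown than in shMtfr1l, with a called interaction of 0.78 (adjusted p = 0.00732, edgeR). The part of this weaker knockdown in the estimates was not tested.

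**Figure D2:**
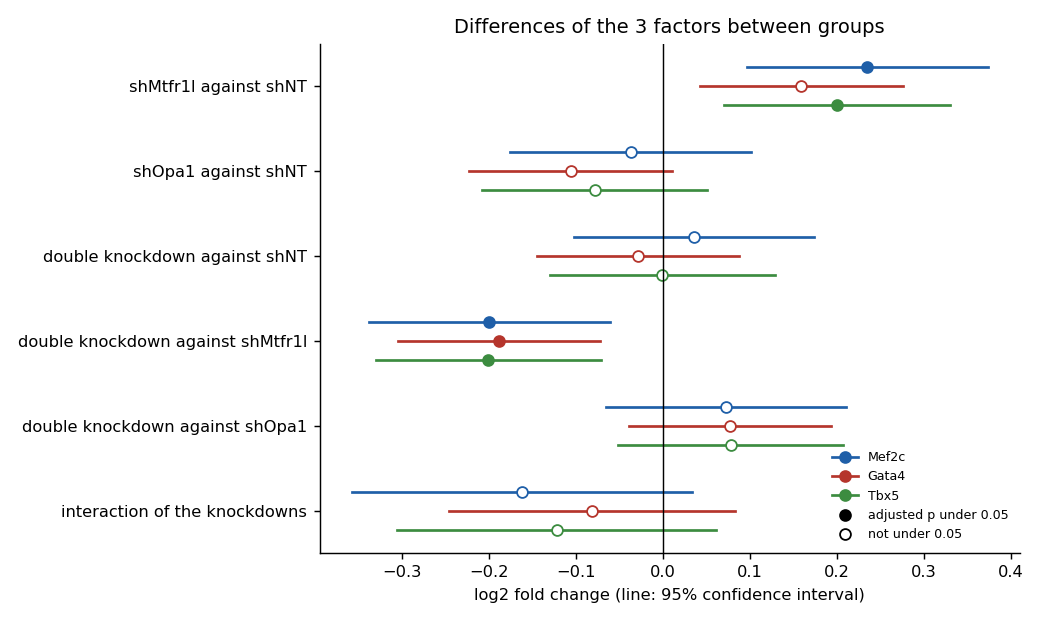
Log2 fold changes of the 3 factors in the 6 comparisons, with 95% confidence intervals as lines; filled points have an adjusted p under 0.05. The shMtfr1l difference from shNT lies above 0 and the double knockdown difference from shMtfr1l below 0, and all other intervals cross 0.

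**Figure D3:**
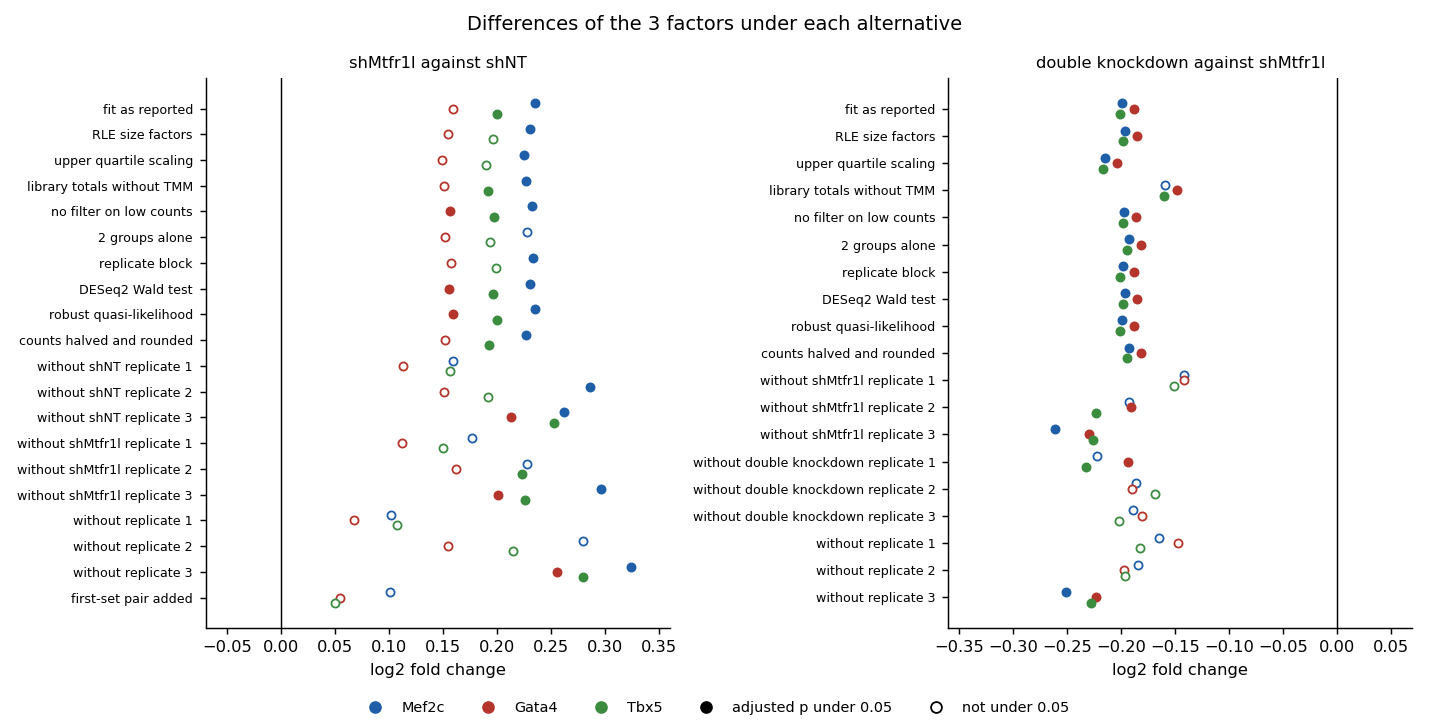
The log2 fold change of each factor under the fit as reported and under each alternative, for shMtfr1l against shNT (left) and double knockdown against shMtfr1l (right); filled points have an adjusted p under 0.05. No value changes sign, but leaving out replicate 1, or replicate 2, of every group empties every point on both sides.

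The first set pointed the other way. The shMtfr1l library had 434 CPM of Mef2c and the shNT library 530.5 CPM, a log2 difference of -0.29. For Gata4 they had 781 and 931 CPM (-0.25), and for Tbx5 612 and 803 CPM (-0.39). The 3 columns of each sample did not overlap between the conditions for any factor: Tbx5 was 608, 634.5 and 595 CPM in the shMtfr1l columns and 806, 779 and 825 CPM in the shNT columns. The sample titles do not say whether the 3 columns of a sample are separate cultures. They were counted here as 1 library per condition, so the difference has no replicate check. Among 2151 genes with a mean of 100 CPM or more in the first set, 15.5% were further reduced than Mef2c, 18.1% than Gata4 and 10.2% than Tbx5. Mtfr1l was 8.73 CPM in the first-set shMtfr1l library and 79.2 CPM in the shNT library, in the direction of its label. With the first-set pair added to the fit of the second set, the shMtfr1l differences shrank to 0.10 for Mef2c, 0.055 for Gata4 and 0.050 for Tbx5 on the log2 scale, and no factor was called. All 3 factors had higher CPM in the first-set libraries than in any second-set library, though the sets were scaled separately.

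The proportions of the factors to each other were nearly constant. Per kb of coding length, Gata4 was highest, at 357 ± 3.31 CPM per kb in double knockdown, 338 ± 19.5 in shOpa1, 406 ± 24.8 in shMtfr1l and 364 ± 25.4 in shNT libraries (SD, n = 3 each). Mef2c followed with 218 ± 6.10, 207.5 ± 11.3, 250.5 ± 20.8 and 213 ± 20.3 CPM per kb in the same order of groups. Tbx5 was close to it, at 207 ± 9.11, 196 ± 15.9, 238 ± 13.9 and 207 ± 14 CPM per kb. Per kb of exon length, Gata4 was again highest, at 142 ± 9.89 CPM per kb in shNT libraries, but Tbx5, at 81.7 ± 5.51, was above Mef2c, at 42.0 ± 4.0. The order of Mef2c and Tbx5 thus depends on the length used.

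The ratio of Mef2c to Gata4 per kb of coding length averaged 0.611 ± 0.0137 in double knockdown, 0.614 ± 0.0163 in shOpa1, 0.616 ± 0.0158 in shMtfr1l and 0.585 ± 0.0411 in shNT libraries (SD, n = 3 each). The ratio of Mef2c to Tbx5 averaged 1.05 ± 0.0252 in double knockdown, 1.06 ± 0.0291 in shOpa1, 1.05 ± 0.0513 in shMtfr1l and 1.03 ± 0.0739 in shNT libraries. The ratio of Gata4 to Tbx5 averaged 1.72 ± 0.0739 in double knockdown, 1.73 ± 0.0783 in shOpa1, 1.71 ± 0.0450 in shMtfr1l and 1.76 ± 0.00497 in shNT libraries. The groups overlapped in all 15 comparisons of a ratio between groups, and the exact two-sided permutation p ran from 0.2 to 1.0, where 3 against 3 libraries cannot go below 0.1. The shNT libraries spread most in the ratios with Mef2c, where replicate 2 had 0.632 Mef2c per Gata4 and the other replicates 0.557 and 0.565. In the first set the ratio of Gata4 to Tbx5 was 1.5 in shMtfr1l and 1.36 in shNT, and that of Mef2c to Tbx5 0.849 and 0.792, all below every library of the second set.

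**Figure D4:**
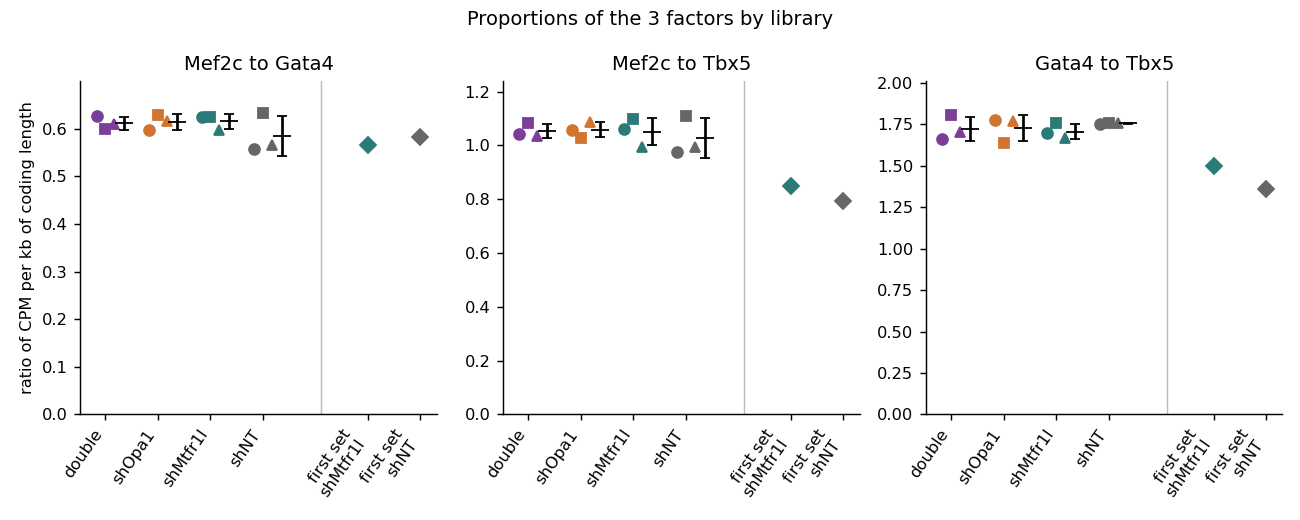
Ratios of the factors' CPM per kb of coding length in each library, with the mean ± SD of 3 libraries in black and the first-set libraries as diamonds. Within the second set the groups overlap for each ratio, and the first-set libraries had relatively more Tbx5.

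The factors also moved together from library to library. Over the 12 libraries, log2 CPM of Gata4 and Tbx5 had a Pearson r of 0.944 (permutation p = 2e-05, adjusted over 3 pairs 6e-05; Spearman rho 0.853, permutation p = 0.00088, adjusted 0.00088). Mef2c and Gata4 had an r of 0.905 (permutation p = 4e-05, adjusted 6e-05; rho 0.888, permutation p = 0.0003, adjusted 0.00045). Mef2c and Tbx5 had an r of 0.904 (permutation p = 7e-05, adjusted 7e-05; rho 0.909, permutation p = 0.0001, adjusted 0.0003). Without the 2 libraries farthest from the median of the gene named first, r was 0.845, 0.751 and 0.803 for these pairs. The permutations ran over all 12 libraries without regard to group, so their p-values also take in differences between the groups. As deviations from the group means, r was 0.848, 0.823 and 0.768, so r was positive within groups too, where no p was computed. The points share libraries and scaling, and the median r of 10866 genes with Mef2c was -0.010.

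Ranked among those 10866 genes with a mean of 5 CPM or more, 0 genes had a higher r with Tbx5 than Gata4 had, and 2 had a higher r with Gata4 than Tbx5 had. With Mef2c, 13 genes were above Gata4 and 15 above Tbx5. The gene most like Mef2c was Pde5a, a cGMP phosphodiesterase, with an r of 0.958 at a mean of 29.1 CPM. Akap6, a scaffold for protein kinase A at the nuclear envelope of muscle cells, was among the 5 most alike for each factor, with an r of 0.952 with Mef2c, 0.933 with Gata4 and 0.928 with Tbx5. The most like Gata4 was Erbb2, a receptor tyrosine kinase (0.950), followed by Jup, the junction protein plakoglobin (0.947), and E030013I19Rik (0.942). Creb3l2, a transcription factor held in the endoplasmic reticulum, was in the lists of Mef2c (0.933) and Gata4 (0.940). The list of Mef2c also held Nynrin (0.933) and Gm608 (0.927). That of Tbx5 held Sel1l3 (0.935), Dip2c (0.931), Cd276, an immune checkpoint surface protein (0.927), and Pde5a (0.926). These values describe 12 libraries.

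Relatives of the factors were described from a list of 23 MEF2, GATA and T-box genes, of which 12 passed the filter. Tbx20, a T-box factor of heart development, was the most abundant, at 862, 840 and 886 CPM in double knockdown, 814, 842 and 754 CPM in shOpa1, 1173, 1034 and 1119 CPM in shMtfr1l, and 1103, 1238 and 1284 CPM in shNT libraries. It fell in shOpa1 by 0.59 (adjusted p = 2.89e-08, edgeR) and in double knockdown by 0.49 against shNT on the log2 scale (adjusted p = 1.05e-06), whereas Tbx5 was not called in either comparison. In shMtfr1l against shNT, 2 of the 12 were called higher and 0 lower, beside 5% and 4.79% of all genes. The 2 were Mef2d (0.33, adjusted p = 0.0335, edgeR) and Tbx3. Tbx3 lost its call whichever library was left out (9 of 9 fits), and Mef2d without shMtfr1l or shNT replicate 1 or 2 (6 of 9 fits). Mef2d is the MEF2 gene that rose in shOpa1 too (0.33) and in double knockdown (0.48) against shNT, while Mef2c did not pass there; the shOpa1 call of Mef2d was lost without shNT replicate 2 or shOpa1 replicate 1 or 2. In double knockdown against shMtfr1l, 5 were lower and 0 higher, beside 11.3% of all genes called lower and 10.2% higher. The 5 were Tbx20, Tbx18, Gata6, Tbx3 and Tbx2. With a library or replicate number left out, 2 to 4 were lower, Tbx3 losing its call in 9, Tbx2 in 8 and Gata6 in 4 of 9 fits. With the replicate block these counts were 1 higher in shMtfr1l against shNT and 3 lower in double knockdown against shMtfr1l. Median log2 fold changes of the 12 were 0.081, -0.18, -0.095 and -0.29 for shMtfr1l, shOpa1 and double knockdown against shNT and double knockdown against shMtfr1l, beside all-gene medians of 0.0029 to 0.0098.

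Of 32 cofactors and regulators of the factors, 29 passed the filter. In shMtfr1l against shNT, 6 were called higher and 1 lower, where 5% and 4.79% of all genes were; with a library or replicate number left out, 0 to 4 were higher and 0 to 2 lower. Smarca4, an ATPase of the BAF chromatin remodeler, was higher (0.26) and Tead1, a partner of YAP, lower (-0.31). In shOpa1 against shNT, where 14% and 14.8% of all genes were called higher and lower, 6 were higher and 2 lower, the 2 being Smarcd3, a BAF subunit known from mouse embryos to act with GATA4 and TBX5 (-0.45), and Hand2, a heart basic helix-loop-helix factor (-0.46). In double knockdown, 3 were higher and 1 lower against shNT (1 to 4 and 0 to 3 with a library or number left out), beside 11.8% and 11.6% of all genes. Against shMtfr1l 2 were higher (1 with the replicate block) and 5 lower (0 to 3 and 4 to 7), beside 10.2% and 11.3% of all genes. Against shOpa1 0 were called, and 5 had an unadjusted p under 0.05. DESeq2 called 2 lower there, where it called 396 of 13860 genes lower. The list medians stayed between -0.13 and 0.090 in these comparisons on the log2 scale.

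A further list held 44 heart genes known as targets of, or driven with, at least 1 of the factors. They are called targets here for short, and which of them are direct targets was not tested. Of the 44, 39 passed the filter (Myocd is in both lists). In shMtfr1l against shNT 28 were higher and 1, Nppa, was lower, where 5% of all genes were called higher and 4.79% lower. With a library or replicate number left out, 22 to 26 were higher and 0 to 1 lower. The median log2 fold change was 0.54, beside 0.24, 0.16 and 0.20 for Mef2c, Gata4 and Tbx5. Myh6, the alpha myosin heavy chain, was 4.82-fold higher (adjusted p = 1.12e-11, edgeR), with 263, 232 and 241 CPM in shMtfr1l and 45.6, 50.8 and 56.0 CPM in shNT libraries. In shOpa1 against shNT 5 were higher and 24 lower (2 to 5 and 22 to 26 with a library or number left out). The median was -0.61, and 14% of all genes were called higher and 14.8% lower. In double knockdown 8 were higher and 16 lower against shNT (median -0.079), beside 11.8% and 11.6% of all genes. With a library or number left out, these were 6 to 10 and 11 to 15. Against shMtfr1l 1 was higher and 33 lower (median -1.13), beside 10.2% and 11.3% of all genes, with 25 to 34 lower in those fits. Against shOpa1 20 were higher and 0 lower (median 0.35), beside 2.05% and 2.17% of all genes, with 12 to 18 higher in those fits. There 23 higher and 0 lower had an unadjusted p under 0.05, a count without an all-gene share beside it. DESeq2 called 20 higher, where it called 395 of 13860 genes higher. Without replicate 2 or replicate 3 of every group, 12 were higher against shOpa1. Of all genes, 65 of 14223 were called higher without replicate 2 and 285 of 14247 without replicate 3, beside 290 of 14162 in the fit as reported. Myh6 fell by 1.5 in double knockdown against shMtfr1l on the log2 scale, while Mef2c, Gata4 and Tbx5 fell by 0.20, 0.19 and 0.20. Gja1, the gap junction protein connexin 43, had 102, 108 and 104 CPM in double knockdown, 67.3, 68.4 and 63.4 CPM in shOpa1, 281, 268 and 277 CPM in shMtfr1l and 180, 199.6 and 189 CPM in shNT libraries. Its groups did not overlap, whereas the factors overlapped between shOpa1 and shNT. The first set was filtered by itself, at a mean of 1 CPM or more with counts in both libraries. That kept 39 listed genes, which differ from the 39 above by Kcnj3 (in) and Nppb (out). Of these, 30 were above and 9 below the shNT level in shMtfr1l, with a median log2 difference of 0.57. The median of all 12865 genes kept there was 0.0072, and the share of all genes above shNT is not given. All 3 factors had negative differences in the same pair, which is 1 library per condition. The comparisons against shNT share the shNT libraries, and these counts are descriptions of the list.

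**Figure D5:**
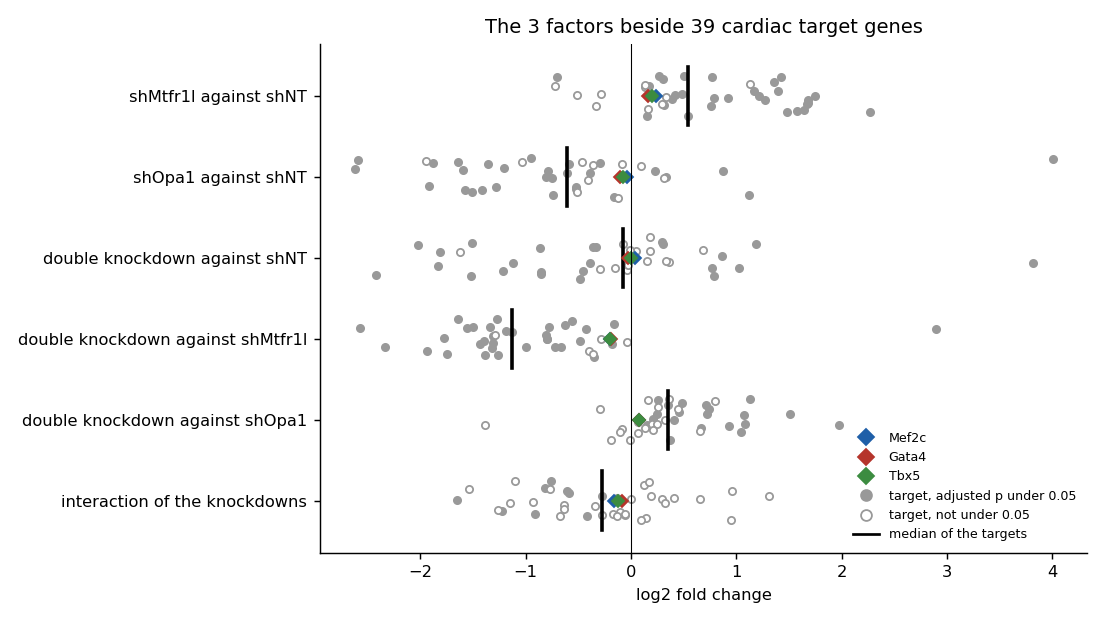
Log2 fold changes, in each comparison, of 39 heart genes known as targets of the factors or driven with them. These genes are grey, filled where the adjusted p is under 0.05, with their median as a black bar. The 3 factors are diamonds. The listed genes spread from -2.63 to 4.0 while the factors stay between -0.20 and 0.24.

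Some targets went against the direction of the others. Xirp2, an actin-binding repeat protein of the intercalated disc, had 19.5, 15.8 and 15.9 CPM in double knockdown, 18.6, 16.6 and 23.0 CPM in shOpa1, 2.13, 2.80 and 1.91 CPM in shMtfr1l and 1.71, 0.861 and 1.13 CPM in shNT libraries. It was 16.1-fold higher in shOpa1 than in shNT (adjusted p = 1.45e-11, edgeR). Nppa, the atrial natriuretic peptide, had 11, 11.2 and 13.3 CPM in double knockdown, 15.6, 13 and 15.1 CPM in shOpa1, 16.7, 25.5 and 19.8 CPM in shMtfr1l and 41.5, 31.4 and 28.4 CPM in shNT libraries. It was lower in each knockdown group than in shNT, including the shMtfr1l group in which Mef2c and Tbx5 were called higher; there its call was lost without shNT replicate 1. These genes were chosen for their promoters below after their values were seen. The 250 bases before the start of each are printed from RefSeq on GRCm38.p6, plus strand, with matches to the motifs in capitals; Nppa is chr4:148000472-148000721 and Xirp2 chr2:67445752-67446001.
Nppa promoter: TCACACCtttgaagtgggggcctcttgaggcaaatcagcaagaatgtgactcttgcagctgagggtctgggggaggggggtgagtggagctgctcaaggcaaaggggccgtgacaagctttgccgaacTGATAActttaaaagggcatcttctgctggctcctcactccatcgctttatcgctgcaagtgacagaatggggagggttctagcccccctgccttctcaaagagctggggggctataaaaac
Xirp2 promoter: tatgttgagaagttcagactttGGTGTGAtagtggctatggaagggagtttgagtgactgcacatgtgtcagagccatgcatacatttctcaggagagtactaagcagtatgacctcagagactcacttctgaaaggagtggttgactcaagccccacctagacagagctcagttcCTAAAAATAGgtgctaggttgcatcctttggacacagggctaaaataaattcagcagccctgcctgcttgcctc
The motifs searched on both strands were AGATAA or TGATAA for GATA factors, GGTGTGA for T-box factors, and the MEF2 box. Nppa holds a GATA match from 122 to 117 bases and a T-box match from 250 to 244 bases before the start, and Xirp2 a T-box match from 228 to 222 bases and a MEF2 box from 74 to 65 bases before the start. No matches overlap. In windows of 300 bases (250 before to 50 after the start), 18.6% of 32851 RefSeq promoters held the GATA motif, 3.98% the T-box motif and 3.19% the MEF2 box. Of 45 such promoters of the 35 measured targets found in the table, 10 held the GATA motif, 4 the T-box motif and 4 the MEF2 box. A match is a run of letters and no measured binding.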

How the data were processed

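Bulk RNA was sequenced from 12 second-set libraries (4 groups of 3) and 2 first-set libraries used here. The authors deposited raw counts for each gene, made with featureCounts 2.0.6 on the UCSC mm10 annotation, strand-specific and with each mate of a pair counted by itself, per the file headers. Of counts from 1 to 20, 65.9% were even. The submitters' processing notes name FastQC and DESeq2, and no source used here gives the aligner. A further 12 count columns could not be tied to a labelled sample and were not used.

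Counts were scaled with TMM, filtered with filterByExpr and compared with edgeR 4.0.16 in R 4.3.3 (default quasi-likelihood fit over all 4 groups, 8 residual degrees of freedom, Benjamini-Hochberg adjustment over 14162 genes, called under 0.05), and the fit was tested on simulated data. The common coefficient of variation was 12.0%. Log2 CPM of single libraries used a prior count of 2. P-values of the group comparisons rest on the spread between cultures named as biological replicates. The replicates of a group are titled with different days. Whether this spread also holds differences in time cannot be told from the labels. Ratios were compared with exact permutation tests and correlations with 100000 permutations (scipy 1.17.1). Alternatives were RLE and upper quartile scaling, library totals, no filter, the 2 groups alone, a replicate block, DESeq2 1.42.0, halved counts, each library or replicate number left out, and the first-set pair added. A robust fit and another scaling of the first-set pair were chosen after seeing the data.

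Same-numbered libraries are titled with the same day in every group, which pairs them by the labels, but their deviations from the group means had r of -0.189 to 0.122 over 18 pairs, beside -0.136 to 0.195 over 36 pairs of different numbers. Named were the 3 factors, Mtfr1l and Opa1, up to 5 called genes per list and comparison with the smallest adjusted p, and per factor the 5 genes with the highest r. Another gene that this rule names is not reported here. Members and lists were chosen with earlier results of these data known. Coding sequences came from the GRCm38 genome with GENCODE M21 and promoters from RefSeq.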

Additional observations from a re-analysis of the deposited data

Results flagged for a closer look

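Mef2c and Tbx5 differed in opposite directions between the sets: every second-set shMtfr1l library lay above every shNT library, whereas every first-set shMtfr1l column lay below every shNT column, by -0.29 for Mef2c and -0.39 for Tbx5 on the log2 scale. This difference between the sets was not tested.

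The effect of shMtfr1l differed with and without shOpa1, by the interaction test of edgeR, for some targets and 2 cofactors. It was called for none of the 3 factors. The knockdown itself differed too, as Mtfr1l had a called interaction of 0.78 (adjusted p = 0.00732, edgeR). The part of this weaker knockdown in the interactions below was not tested. The log2 interaction was -0.82 for Csrp3, a muscle LIM protein, -0.59 for Myom1, an M-band protein, -0.41 for Atp2a2, the calcium pump of the sarcoplasmic reticulum, and -1.22 for Mb, myoglobin. It was -0.38 for Lmcd1, a LIM protein known to restrain GATA6, and -0.32 for Smarca4. Smarca4 lost the call with the replicate block and in 11 of 15 fits that left out a library or replicate number, Lmcd1 in 5, Mb in 2 and Csrp3, Myom1 and Atp2a2 in 1 each. Of the 39 targets, 9 had a called interaction, Myh6 (-0.76) among them, where 1.27% of all genes had one above 0 and 1.59% below 0. All 9 were below 0, but 1 was called without replicate 1 and 4 without replicate 2 of every group. Interactions below 0 were called for 40 of 14266 genes without replicate 1 and 51 of 14223 without replicate 2. In the fit as reported they were called for 225 of 14162.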

How the results depend on the processing

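The number of factors called in shMtfr1l against shNT was 2 as reported, 3 with no filter, DESeq2 or the robust fit, 1 with RLE or upper quartile scaling, 1 with the replicate block, 0 with the 2 groups alone, 0 with the first-set pair added, and 0 to 3 when a library or replicate number was left out. In double knockdown against shMtfr1l it was 3 as reported and 0 to 3 with a library or number left out, and in shOpa1 against shNT 0 to 1, Gata4 being called without replicate 1. The counts stayed at 0 in the remaining 3 comparisons under every alternative run. No log2 fold change of a factor changed sign in shMtfr1l against shNT or double knockdown against shMtfr1l, with ranges of 0.050 to 0.32 and -0.26 to -0.14 over all alternatives.

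Differences near 0 changed sign. With library totals in place of TMM, double knockdown against shNT was 0.0029 for Gata4 and 0.031 for Tbx5. With a library or number left out, double knockdown against shNT ran from -0.063 to 0.096 for Mef2c, -0.080 to 0.032 for Gata4 and -0.075 to 0.053 for Tbx5, shOpa1 against shNT from -0.13 to 0.034 for Mef2c and -0.14 to 0.037 for Tbx5, and the interaction from -0.22 to 0.039 for Gata4. The ratio differences ran from -0.031 to 0.0044 (Mef2c to Gata4), -0.035 to 0.035 (Mef2c to Tbx5) and -0.020 to 0.039 (Gata4 to Tbx5) for double knockdown against shMtfr1l. For double knockdown against shOpa1 they ran from -0.025 to 0.013, -0.027 to 0.013 and -0.040 to 0.024 in the same order. The ratio of Mef2c to Tbx5 in shMtfr1l against shNT ran from -0.00034 to 0.094 and that of Gata4 to Tbx5 in shOpa1 against shNT from -0.047 to 0.012. The cause of these changes was not tested. In the pairing by replicate number the sign-flip test of the ratios cannot go below 0.25. The mean ratio differences are the same with that pairing, so it is no check of their direction. Beside Tbx5, the replicate block changed no call of a factor.

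Counts mix vector and endogenous transcripts, and the level before transduction is not analysed here. Each mate counts by itself, so the number of fragments is smaller than the number of counts. The members' differences of about 1.1 to 1.2 times are near the spread between libraries of a group, and the depth, 4026 counts or more per factor and library, does not limit them.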
